A study of Mus musculus with 53 samples.

Results

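Gas5 and the Snhg genes are long non-coding RNA (lncRNA) genes that carry small nucleolar RNAs (snoRNAs) in their introns. All rows named Gas5, Snhg1, Snhg3, Snhg5, Snhg6, Snhg8 or Snhg12 were taken from both tables of single-cell RNA. Of these 7 genes, 6 had a row among the 14833 genes of the embryonic table, and the same 6 had a row among the 6910 of the adult table. Snhg8 had a row in neither and is not described further.

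The embryonic cells, T1 pre-HSCs, are type 1 forerunners of haematopoietic stem cells (HSCs) and were sorted at E11 from the aorta-gonad-mesonephros region, the part of the embryo where HSCs first arise. The 12 KO cells, numbered 1 to 12, carried the genotype mH19 delta_DMR/+, in which the mutant allele lacks the differentially methylated region (DMR) that lies before the imprinted lncRNA gene H19. The 10 control cells, numbered 13 to 22 and called wildtype in the labels, carried mH19 flDMR/+ and so had a floxed allele rather than an unmodified pair. The 26 adult HSCs came from the bone marrow of C57 mice and are labelled wildtype. The labels name no Cre driver, embryo, litter or sort, so each group is 1 sample whose cells are no replicates of it, and the genotypes could not be compared by a test. Spreads below are SDs or ranges over cells.

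Before any result, some cells have to be set apart. Wildtype cell 19 was not used, since its column is out of step with the gene names of the table. Around Gas5 its values lined up best with the other cells when moved by 1 row, and around the Snhg genes when moved by 1 row in the other direction, whereas all 21 other cells were in step in both places. In its own row Gas5 read 0.874 RPKM in that cell, and the row at the best offset read 5155 RPKM. In the 21 cells used, the KO cells had 1517 to 8408 genes at 1 RPKM and the wildtype cells 2067 to 5716, and KO cells 1, 9 and 12 were under 2000. Summed RPKM was 865404 to 1129740 per KO cell and 909372 to 1085360 per wildtype cell, and read depth is not known. H19, the gene beside the deletion, lay between 0 and 186 RPKM in KO cells and between 231 and 1261 RPKM in wildtype cells, with no overlap. All 9 markers listed for T1 pre-HSCs had a row, but their detection was uneven. Procr, Mecom, Cdh5 and Kit reached 1 RPKM in 9, 8, 7 and 7 of 12 KO cells and in 8, 7, 7 and 5 of 9 wildtype cells. Runx1, Sox17, Itga2b and Hlf did so in 4, 4, 3 and 2 KO cells and in 6, 2, 3 and 2 wildtype cells. Gfi1, a transcription factor of early blood cells, did so in 0 of 12 KO cells and 7 of 9 wildtype cells, and the groups were thus unlike in this marker. No listed marker of any cell type had a row in the adult table, so the label of those cells could not be checked.

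A host gene is transcribed as a precursor whose introns are cut out and trimmed to snoRNAs. C/D box snoRNAs guide ribose methylation of ribosomal RNA, and H/ACA box snoRNAs guide the change of uridine to pseudouridine. The spliced exons that remain, which poly(A)-based single-cell methods read, often begin with a run of pyrimidines, the terminal oligopyrimidine (TOP) motif that they share with ribosomal protein mRNAs. In cultured mammalian cells the spliced RNA of several hosts is bound by ribosomes and broken down by nonsense-mediated decay, and Gas5 was found as a transcript that builds up when growth stops.

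The 6 genes do not overlap each other, but Snhg3 and Snhg12 lie near each other on chr4. Their places are given here from RefSeq on GRCm38.p6, the assembly also called mm10 that the submitters' processing notes name. Gas5 (ENSMUSG00000053332.9) spans chr1:161034601-161038539, holds 8 annotated snoRNAs and overlaps the protein-coding gene Zbtb37. Snhg6 (ENSMUSG00000098234.3) spans chr1:9942025-9944118, holds the single snoRNA Snord87 and overlaps Mcmdc2. Snhg1 (ENSMUSG00000097188.1) spans chr19:8723487-8726326 and holds 8 snoRNAs. Snhg5 (ENSMUSG00000097195.4) spans chr9:88521052-88522897 and holds 2. Snhg3 (ENSMUSG00000085241.3) spans chr4:132351933-132353686 and holds the H/ACA box snoRNAs Snora73a and Snora73b. Snhg12 (ENSMUSG00000086290.4) spans chr4:132308678-132311024 and holds Snora16a, Snora44, Snora61 and Snord99. Whether reads were counted by strand is not given in the sources used here, so reads of overlapping genes cannot be told apart. Zbtb37 and Mcmdc2 reached 1 RPKM in 0 of the 21 T1 cells.

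The starts of the genes are shown because the TOP motif is the sequence feature that ties these hosts to ribosomal protein genes. Each line holds 40 bases before and 25 bases from the annotated RefSeq start on, read 5' to 3' on the gene's strand. Capitals mark a run of 5 or more pyrimidines that begins with C within 5 bases of the start. Of the 6 genes, 5 had an entry, and Snhg6 had none. Gas5 has 2 entries, and the downstream one at chr1:161035126-161035190 is printed. The others are Snhg12 at chr4:132308638-132308702, Snhg3 at chr4:132353662-132353726 on the minus strand, Snhg1 at chr19:8723447-8723511, and Snhg5 at chr9:88522873-88522937 on the minus strand.
Gas5: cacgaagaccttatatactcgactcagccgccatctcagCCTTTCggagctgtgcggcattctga
Snhg12: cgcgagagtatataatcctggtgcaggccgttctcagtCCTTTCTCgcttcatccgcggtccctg
Snhg3: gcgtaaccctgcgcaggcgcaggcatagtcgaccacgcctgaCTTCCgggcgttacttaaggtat
Snhg1: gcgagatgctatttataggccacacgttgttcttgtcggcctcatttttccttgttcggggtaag
Snhg5: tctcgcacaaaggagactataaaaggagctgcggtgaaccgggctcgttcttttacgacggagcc

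A pyrimidine run in this place was found at 3 of the 6 annotated starts of these 5 genes, namely CCTTTC in Gas5, CCTTTCTC in Snhg12 and CTTCC in Snhg3. The same search found one at 16.1% of all 32851 promoter windows and at 35.1% of the 74 windows of ribosomal protein genes. The letters TATA, which read the same on both strands, lay between 40 and 15 bases before the start in 4 of the 6 windows, against 5.91% of all windows and 8.11% of those of ribosomal protein genes. They began 29 bases before the Gas5 start shown, 32 before that of Snhg12, 27 before that of Snhg1 and 23 before that of Snhg5. The upstream Gas5 start had neither feature. These searches were chosen after the sequences had been seen, a match is a description and not a working site, and an annotated start may differ from the base where these cells begin transcription.

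Gas5 was the most abundant of the 6 genes in T1 pre-HSCs by RPKM, which is scaled to length. It exceeded 1 RPKM in all 12 KO cells and in all 9 wildtype cells. Among the 14833 rows of a cell it stood between place 5 and place 1022, with a median of place 37. Among the 638 rows that the reference lists as lncRNA it was the highest in 4 of 21 cells and the second highest in 15. By median over the 21 cells, Malat1, a nuclear lncRNA, led these rows at 8342 RPKM, followed by Gas5 at 4065 RPKM, Snhg6 at 377 RPKM and H19 at 87.2 RPKM.

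Gas5 measured 9757, 2550, 4192, 3806, 1844, 1772, 4365, 5793, 8941, 11708, 1871 and 6451 RPKM in KO cells 1 to 12. It measured 34.2, 511, 3476, 4065, 5114, 3240, 3703, 6743 and 4592 RPKM in wildtype cells 13 to 18 and 20 to 22. The groups overlap over most of their range, but wildtype cells 13 and 14 lie below every KO cell, and KO cells 1, 9 and 10 lie above every wildtype cell. The median was 4278 RPKM in KO cells and 3703 RPKM in wildtype cells. On the log2(RPKM + 1) scale the mean was 12.07 ± 0.97 in KO cells and 10.96 ± 2.43 in wildtype cells (SD over 12 and 9 cells), a difference of 1.12. Single cells carry this difference: it was 0.39 without wildtype cell 13, 0.87 without wildtype cell 14, 0.99 without KO cell 10, and 0.21 when medians over cells replaced means.

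Snhg6, host of Snord87, was the member whose detection differed most between genotypes. It reached 1 RPKM in 6 of 12 KO cells (exact Clopper-Pearson 95% interval 21.1 to 78.9% of cells) and in 9 of 9 wildtype cells (66.4 to 100%). The intervals overlap, and they cover counting error over cells only. In KO cells 2, 4, 5, 6, 9 and 10 it measured 413, 836, 386, 681, 2013 and 817 RPKM. In KO cells 1, 3, 7, 11 and 12 it was listed at 0, and in KO cell 8 at 0.710 RPKM. In wildtype cells 13 to 18 and 20 to 22 it measured 2043, 277, 5.90, 200, 377, 396, 512, 320 and 397 RPKM. KO cells thus held either 386 RPKM and more or under 1 RPKM, with none in between, and the KO cells with Snhg6 had levels inside the wildtype range. The mean log2(RPKM + 1) was 4.82 ± 4.94 in KO cells and 8.08 ± 2.19 in wildtype cells (SD over 12 and 9 cells), a difference of -3.26.

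Genes were compared if 50% or more of the KO cells or of the wildtype cells had them at 1 RPKM, which left 3867. Of these, 32 (0.828%) had a difference as low as that of Snhg6. KO cells with and without Snhg6 also differed in how many genes were detected at all. The median number of genes detected was 6104.5 in the 6 KO cells with Snhg6, 3131.5 in the 6 KO cells without it and 4176 in wildtype cells. KO cell 9, with Snhg6 at 2013 RPKM, had 1891 genes. The summed macrophage markers had a Spearman correlation of 0.53 with Snhg6 over the 21 cells. This was the highest value among the marker lists read, and the mature leukocyte list came next at 0.35. Of 6 macrophage markers, 3 had a row. Their sum lay between 0 and 700 RPKM per KO cell and between 0.00168 and 1951 RPKM per wildtype cell. Lyz2 reached 1 RPKM in 6 of 12 KO cells and 6 of 9 wildtype cells. Mrc1 did so in 1 KO cell and 0 wildtype cells, and the defining marker C1qb was under 1 RPKM in every cell. The sum thus rests mostly on Lyz2 alone. The part of cell quality or of macrophage RNA in the Snhg6 difference was not tested.

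Snhg3, host of the H/ACA snoRNAs Snora73a and Snora73b, was present in about as many cells of both groups. It reached 1 RPKM in 6 of 12 KO cells, at 393, 19.8, 2.93, 659, 11.8 and 52.2 RPKM in cells 2, 4, 5, 7, 8 and 9. It did so in 5 of 9 wildtype cells, at 598, 10.8, 414, 227 and 711 RPKM in cells 14, 17, 20, 21 and 22. Most KO cells that held Snhg3 were below 100 RPKM and most such wildtype cells above it, though the groups overlap. The mean log2(RPKM + 1) was 2.82 ± 3.51 in KO cells and 4.31 ± 4.44 in wildtype cells (SD over 12 and 9 cells). The difference was -1.49, and it was -0.87, -0.94 and -0.84 when wildtype cell 14, 20 or 22 was left out. Snora73b has a row of its own and reached 1 RPKM in 3 of 12 KO cells, between 41.3 and 4275 RPKM, and in 0 of 9 wildtype cells, which allows a share of up to 33.6% of cells by the exact interval. Since it lies within Snhg3, its reads and those of its host cannot be told apart.

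Snhg5, a C/D box host, was detected more sparsely. It reached 1 RPKM in 4 of 12 KO cells, at 483, 177, 1.52 and 422 RPKM in cells 3, 5, 6 and 7. It did so in 5 of 9 wildtype cells, at 4.91, 4.94, 506, 7.95 and 1.37 RPKM in cells 15, 16, 17, 18 and 21. High values were thus seen in 3 KO cells and 1 wildtype cell, and the other wildtype cells with Snhg5 stayed under 10 RPKM. The mean log2(RPKM + 1) was 2.20 ± 3.75 in KO cells and 2.06 ± 2.90 in wildtype cells (SD over 12 and 9 cells). The difference was 0.15, and its sign changed when single cells were left out, over a range of -0.47 to 1.01.

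Snhg1 and Snhg12 were at or near 0 in most T1 cells. Snhg1, host of 8 snoRNAs, reached 1 RPKM in 3 of 12 KO cells, at 1.09, 18.9 and 25.2 RPKM in cells 4, 5 and 10, and in 1 of 9 wildtype cells, at 15.4 RPKM in cell 22. Snhg12, host of both box types, did so in 1 of 12 KO cells, at 79.7 RPKM in cell 5, and in 2 of 9 wildtype cells, at 199 and 533 RPKM in cells 20 and 22. Both were in fewer than 50% of the cells of either group and so were not among the compared genes. All 6 genes were present together in 1 cell, KO cell 5, which also had the most genes at 1 RPKM or more, 8408. Only Gas5 was present in KO cells 1, 11 and 12, while every wildtype cell held at least 2 of the 6.

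**Figure D1:**
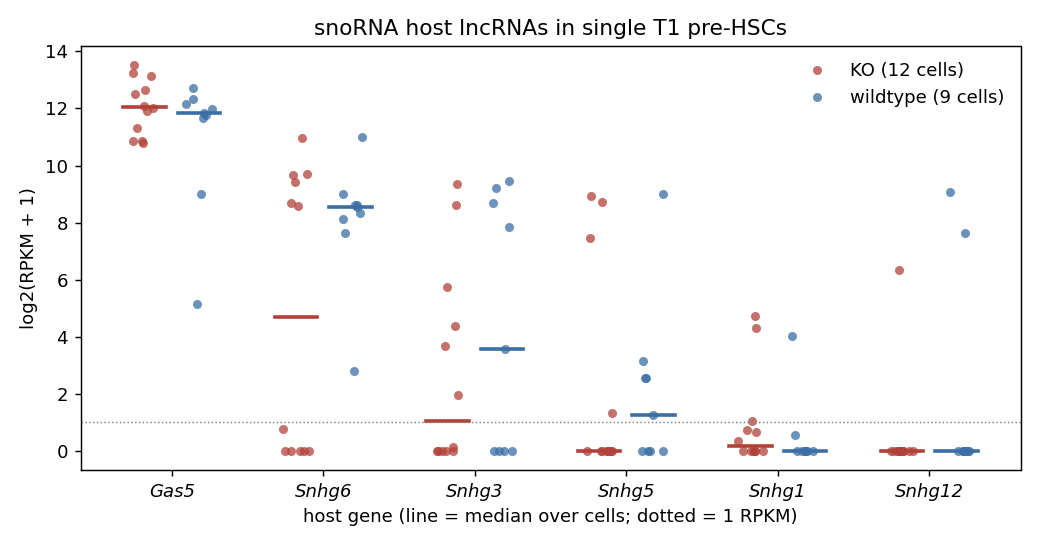
Levels of the 6 host genes in single T1 pre-HSCs as log2(RPKM + 1), one point per cell, with 12 KO cells left of 9 wildtype cells for each gene; horizontal bars are medians over cells and the dotted line is 1 RPKM. Gas5 is high in nearly every cell, and Snhg6 is split in KO cells into 6 cells at 386 RPKM or more and 6 under 1 RPKM.

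Seen against all compared genes, the hosts as a group did not share a direction. Of the 4 members compared, Gas5 was higher in KO cells by more than 1 on the log2 scale, Snhg3 and Snhg6 were lower by more than 1, and Snhg5 was within 1. A difference of at least 1 in size was seen in 39.4% of the 3867 compared genes, higher in KO cells in 11.4% and lower in 28.0%. The median difference was -0.67 over the 4 members compared, against -0.36 over all compared genes (quartiles -1.11 and 0.35). Over all 6 members, of which Snhg1 and Snhg12 did not meet the limit for comparison, it was -0.59. All 6 members had overlapping groups. The share of all compared genes with overlapping groups was not calculated, so nothing about the members is read from this. The centre of all genes depends on the scaling and on the cells used. With each cell shifted to an equal median of the compared genes, the median of all genes was 0.79, and the lower share of the genes past 1 was 12.8% in place of 71.0%. The balance also turned with no rescaling when KO cells 1, 9 and 12, those under 2000 genes, were left out. The median of all genes was then 0.22, with 1116 genes higher by 1 or more in KO cells and 610 lower, a lower share of 35.3%. Taken relative to the median of all genes, which gives the same values with and without that shift, Gas5 was higher by 1.48, Snhg5 by 0.51 and Snhg1 by 0.84, while Snhg3 stood at -1.12, Snhg12 at -0.96 and Snhg6 at -2.89. Over the 8 settings tried, the relative value of Gas5 ran from 0.54 to 2.43 and that of Snhg6 from -4.10 to -1.66. The 2.43 came from the setting that took in wildtype cell 19, whose column is out of step with the gene names. The next highest Gas5 value was 1.73, with a pseudocount of 0.1. The relative values of Snhg5, from -0.92 to 0.66, and of Snhg12, from -1.37 to 0.33, changed sign.

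**Figure D2:**
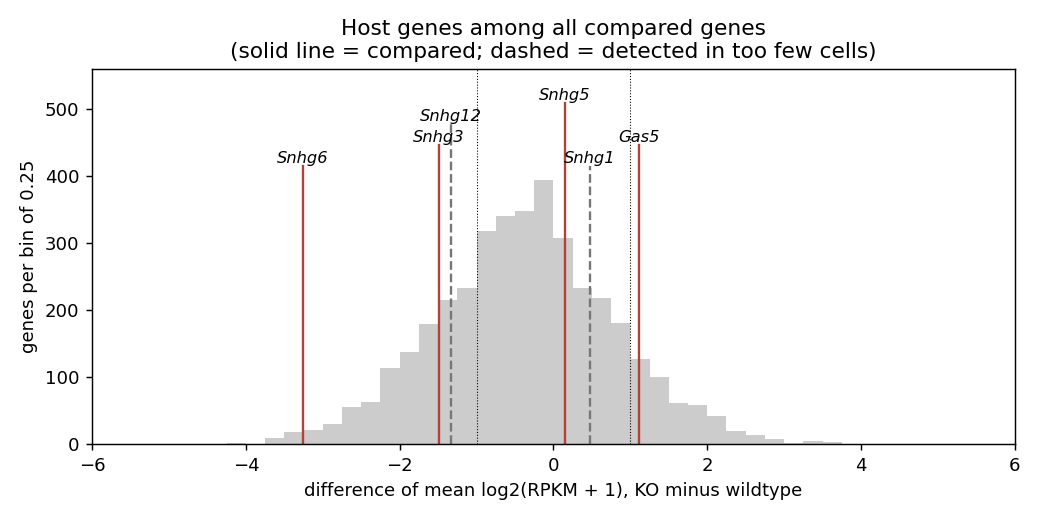
Difference of mean log2(RPKM + 1), KO minus wildtype, for all 3867 compared genes in bins of 0.25 (grey bars, number of genes) with the 6 host genes as vertical lines; dashed lines are genes detected in too few cells to be compared, and dotted lines stand at -1 and 1. Snhg6 at -3.26 lies in the far left tail, Gas5 at 1.12 right of centre.

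Ribosomal protein mRNAs were abundant in both genotypes. The mean RPKM of the 252 rows that start with Rpl or Rps, pseudogenes included, had a median of 797 over KO cells, between 482 and 1099, and of 795 over wildtype cells, between 601 and 1036. Gas5 RPKM divided by the mean RPKM of the 76 cytosolic ribosomal protein genes lay between 0.587 and 4.95 over KO cells, with the middle at 1.94. Over wildtype cells this ratio lay between 0.0171 and 2.11, with the middle at 1.56. KO cells 1, 9 and 10 had the highest ratios at 4.70, 4.95 and 4.15, and they were among the 4 KO cells with the fewest genes.

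Over the 21 T1 cells the Spearman correlations of the hosts with the ribosomal protein level were 0.54 for Snhg1, 0.27 for Snhg6, 0.24 for Snhg12, 0.20 for Gas5, 0.13 for Snhg3 and 0.03 for Snhg5. The median of the 6 was 0.22, and that of the 4 compared members was 0.17. Over 3737 compared genes outside the ribosomal protein rows and the members it was 0.18 (quartiles 0.01 and 0.35). Snhg1 was above the upper quartile, with 5.83% of these genes as high, and the other 5 were between the quartiles. These correlations share the library and its normalisation: the ribosomal protein level itself had a correlation of 0.46 with the number of genes detected. The value for Snhg1 rests on 4 cells at 1 RPKM or more.

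Within the groups Gas5 gave 2 different pictures. In the 9 wildtype cells its correlation with the ribosomal protein level was 0.83, and it stayed between 0.76 and 0.93 when any single cell was left out and at 0.86 without both cells 13 and 14. In the 12 KO cells it was -0.15, between -0.36 and -0.04 with single cells left out. Over 3737 compared genes the median of this correlation was 0.17 in wildtype cells (quartiles -0.10 and 0.43). In KO cells it was 0.22 (quartiles -0.01 and 0.41). In KO cells Gas5 went instead with the number of genes detected, with a correlation of -0.83 (-0.88 to -0.78 with single cells left out). In wildtype cells that correlation was 0.30. Its values over all compared genes were not calculated, so how common such a correlation is cannot be told. The KO cells with the fewest genes, 1, 12, 9 and 10, held the 4 highest Gas5 values of that group. Given the number of genes detected, the partial rank correlation of Gas5 with the ribosomal protein level over all 21 cells was 0.56. For the other members it ran from -0.12 for Snhg5 to 0.43 for Snhg1, and over all compared genes it was not calculated. Without that adjustment the Gas5 correlation was 0.20, and 0.06 when the 2 cells farthest from the median ribosomal protein level were left out. The difference between the genotypes in these correlations was not tested, since each genotype is 1 sample.

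**Figure D3:**
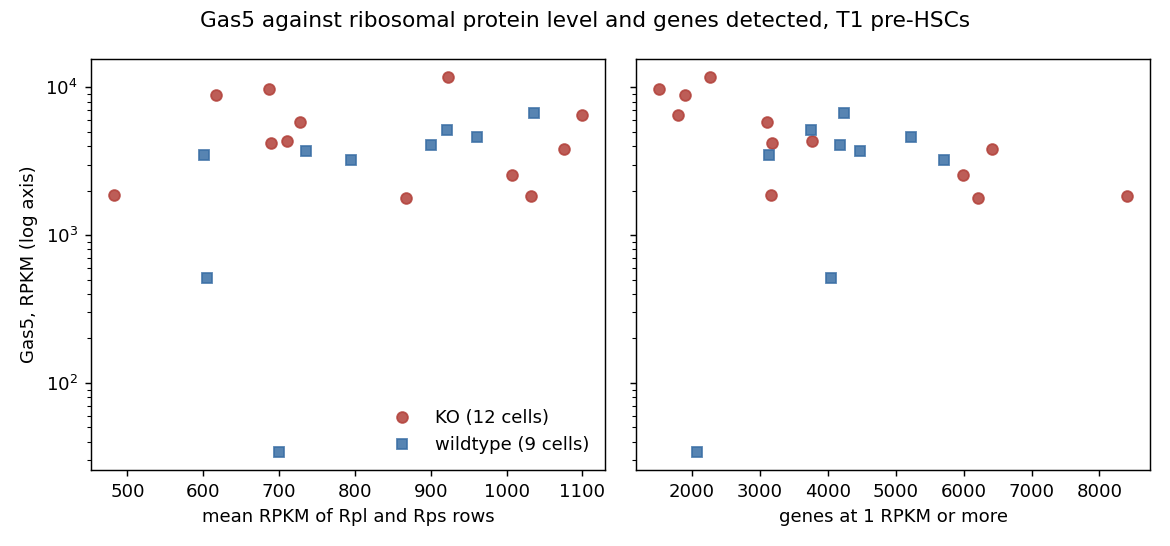
Gas5 RPKM on a log axis in each T1 pre-HSC against the mean RPKM of Rpl and Rps rows (left) and against the number of genes at 1 RPKM or more (right), with 12 KO cells as circles and 9 wildtype cells as squares. Wildtype cells go up with the ribosomal protein level (rho 0.83), and KO cells go down with the number of genes (rho -0.83).

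The hosts showed little correlation with each other in T1 pre-HSCs. Snhg1, Snhg5 and Snhg12 reached 1 RPKM in only 4, 9 and 3 of 21 cells. Many values are thus tied at 0, and independence cannot be read from low correlations. Over 15 pairs the median Spearman correlation over 21 cells was 0.03, the range was -0.29 to 0.42, and 8 pairs were positive. Over all pairs of the 3867 compared genes the median was 0.15, and all of them share each cell's library and total. Snhg1 and Snhg12 are not among the compared genes, so the hosts and this background differ in detection. The highest pair was Snhg3 with Snhg12 at 0.42, where all 3 cells with Snhg12 also held Snhg3. The lowest was Snhg5 with Snhg6 at -0.29, with 7 cells holding both. Gas5 had correlations of -0.19 to 0.11 with the other 5.

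In the adult HSCs the same 6 genes were again led by Gas5. The adult table is treated as FPKM, the same kind of measure for fragments, and it was made with a different library method, so no level was compared between the tables. Gas5 reached 1 FPKM in 22 of 25 cells, which is 88.0% (exact 95% interval 68.8 to 97.5%). Its lowest value was 0, its median 318 and its highest 1030 FPKM. The adult rows include no gene of the protein-coding lists used here, so a place among them is not a place among all genes. Gas5 was the highest of these 6910 rows in 9 cells and among the 10 highest in 16. By mean FPKM it came in place 2, behind Meg3, an imprinted lncRNA, and by median in place 1. Cells 14, 21 and 25 listed it at 0, and cell 7 held 1.87 FPKM.

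Snhg12, sparse in T1 pre-HSCs, was the next most often detected member here, in 16 of 25 adult cells or 64.0% (42.5 to 82.0%), with a median of 2.51 FPKM and a highest value of 363 FPKM in cell 2. Its mean placed it at 14 among the 6910 rows of the adult table. Snhg6 was detected in 15 cells, with a median of 3.34 FPKM and a highest value of 239 FPKM in cell 7, the cell in which Gas5 was near 1 FPKM. Snhg1 was detected in 14 cells, with a highest value of 49.0 FPKM in cell 17. Snhg5 was detected in 10 cells, and 9 of these ranked it among their 100 highest rows, with a highest value of 226 FPKM in cell 22. Snhg3 was detected in 4 cells and did not exceed 4.86 FPKM.

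Snhg5 was thus close to all or none in adult HSCs, whereas Snhg1 was present in more cells at lower levels. By detection the order was Gas5, Snhg12, Snhg6, Snhg1, Snhg5 and Snhg3, and the exact intervals of Snhg12, Snhg6, Snhg1 and Snhg5 overlap. No adult cell held all 6 members, 4 cells held 5, and cell 25 held none.

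**Figure D4:**
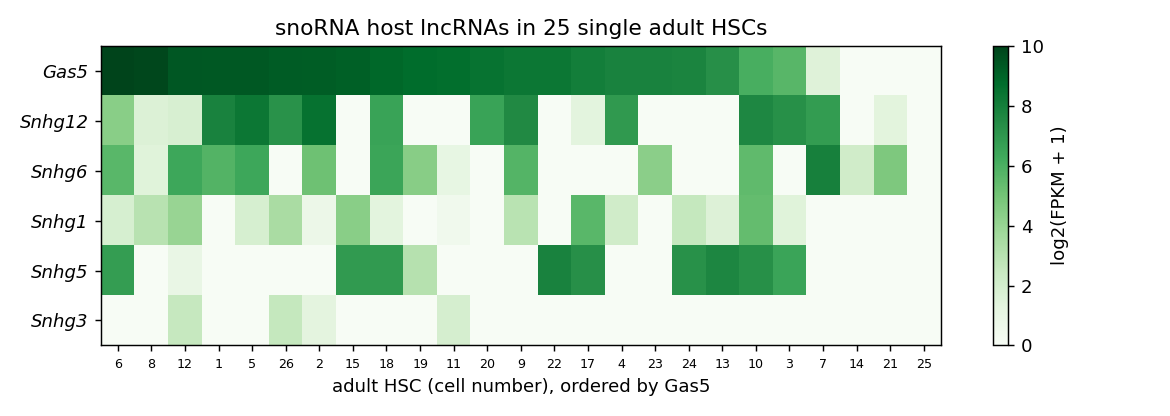
Levels of the 6 host genes in 25 adult HSCs as log2(FPKM + 1), one column per cell, ordered by Gas5 with the highest on the left; darker green is higher and the palest shade is 0. Gas5 fills 22 columns, and Snhg12, Snhg6 and Snhg5 are each high in some cells and absent in others.

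In the adult table the median Spearman correlation of the pairs of hosts over 25 cells was 0.21, with a range of -0.31 to 0.47 and 10 of 15 pairs positive. The median was 0.03 over all pairs of the 299 rows at 1 FPKM or more in at least 50% of cells. Snhg3 and Snhg5 did not meet that limit, so the hosts and these rows differ in detection. Snhg6 with Snhg12 was the highest at 0.47, with 11 cells holding both. Gas5 had correlations of 0.29 to 0.38 with Snhg1, Snhg3, Snhg6 and Snhg12 and of -0.05 with Snhg5. No adult cell held both Snhg3 and Snhg5 at 1 FPKM or more, with 4 cells holding the one and 10 the other. Cell 12 had Snhg3 at 4.72 FPKM and Snhg5 at 0.925 FPKM, just under that cut. With so few cells holding Snhg3, no exclusion between these genes is read from this. Members and background rows share each cell's library and total. The T1 value of 0.03 pools both genotypes and was 0.02 within KO cells and 0.23 within wildtype cells, and by Pearson's r on the log2 scale the medians were 0.10 in adult HSCs and 0.07 in T1 cells, so no order between the tables is read from them.

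**Figure D5:**
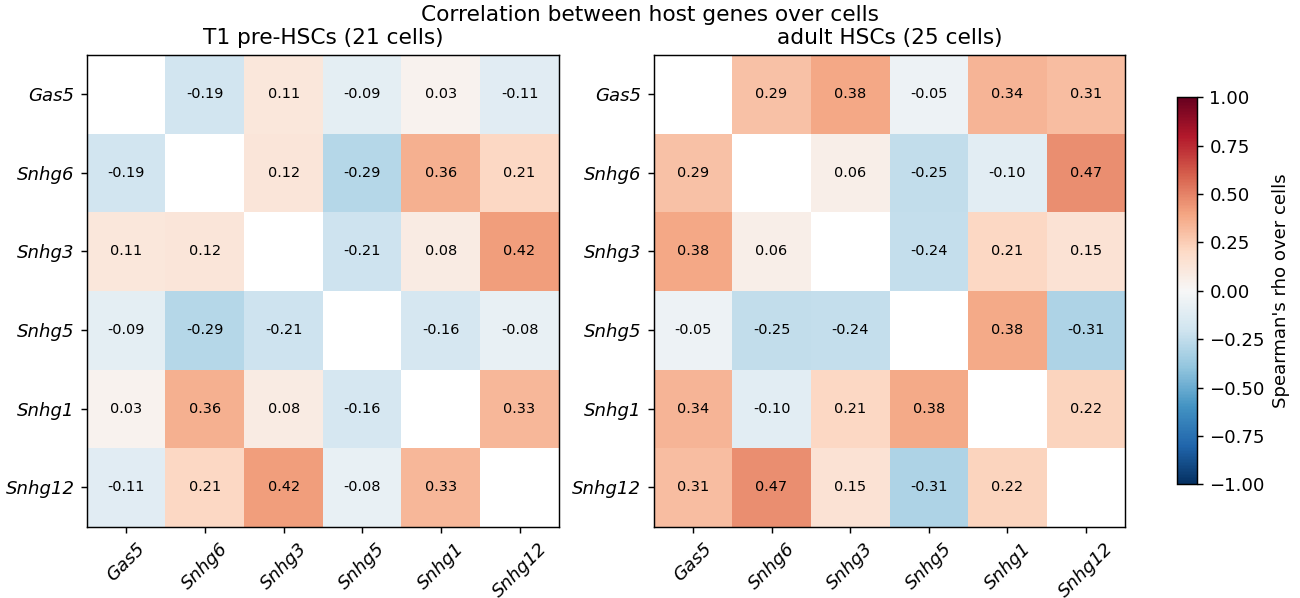
Spearman's rho over cells for each pair of host genes in 21 T1 pre-HSCs (left) and 25 adult HSCs (right), from blue at -1 to red at 1. No pair passes 0.5 in either table, and Snhg5 has negative values with most other members.

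Other genes of the snoRNA pathway were read from lists of known members. Of 14 further snoRNA host lncRNAs, 5 had a row in the T1 table under the listed symbol and 1 was compared, Snhg9, at -0.94 on the log2 scale. Snhg9 reached 1 RPKM in 5 of 12 KO cells and 5 of 9 wildtype cells. Snhg4 did so in 2 of 12 KO cells and 1 of 9 wildtype cells, and Snhg7 in 0 of 12 KO cells and 1 of 9 wildtype cells. In the adult table Snhg4 was detected in 6 of 25 cells and Snhg7 in 5, and Snhg9 was listed at 0 in all 25. Zfas1, a host known for a role in mammary development in mice, has its row under the older symbol 1500012F01Rik. It reached 1 RPKM in 5 of 12 KO cells and 1 of 9 wildtype cells.

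Of the snoRNP core and assembly proteins, which bind snoRNAs and build them into working particles, 3 of the 11 compared lay lower in KO cells by 1 or more and 0 higher, at a median difference of -0.62. Nop58, a core protein of C/D box particles, had a median of 654 RPKM in KO cells and 595 RPKM in wildtype cells, a difference of mean log2 of 0.40. Nop10, a core protein of H/ACA box particles, had a median of 264 RPKM in KO cells and 388 RPKM in wildtype cells, a difference of -3.14, and it was present in 10 of 12 KO cells and 9 of 9 wildtype cells. Nhp2, of the same particles, stood at -1.51. Of the genes for ribosomal RNA synthesis and processing, 4 of the 10 compared lay lower by 1 or more and 0 higher, at a median of -0.86. Among them Npm1, a nucleolar chaperone, stood at -1.62, Imp3 at -2.24 and Ncl, nucleolin, at 0.47. Imp3 reached 1 RPKM in 3 of 12 KO cells and 5 of 9 wildtype cells. It thus met the limit for comparison only through the wildtype cells, where it was higher.

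Of the nonsense-mediated decay factors, which limit the spliced host RNAs, 2 of the 8 compared lay lower and 1 higher, at a median of -0.54. Magoh, of the exon junction complex, stood at -1.43, Eif4a3, of the same complex, at -0.30, and Upf3b at 1.58. Upf3b reached 1 RPKM in 6 of 12 KO cells and 3 of 9 wildtype cells. It thus met the limit for comparison only through the KO cells, where it was higher. Of the TOP mRNAs whose symbols do not start with Rpl or Rps those compared numbered 22, of which 4 lay lower and 3 higher, at a median of -0.16. Fau and Gnb2l1, which encode components of the small ribosomal subunit, and Tpt1 stood at -0.04, -0.07 and 0.57. Of 18 ribosomal protein genes that host snoRNAs, 5 lay lower and 1 higher, at a median of -0.34. Rpl13a stood at -1.02 and Rps2 at 0.22. Of 10 compared protein-coding hosts whose symbols do not start with Rpl or Rps, 3 lay lower and 0 higher, at a median of -0.51, and Eef1b2 and Hspa8 stood at 0.71 and -0.40. These counts stand beside 28.0% lower and 11.4% higher among all compared genes.

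The median Spearman correlation of these lists with Gas5 over 21 cells lay between -0.17 and 0.07, against -0.16 over all compared genes. With the ribosomal protein level it was 0.50 for the ribosomal protein genes that host snoRNAs, which are part of that level, and 0.22 to 0.37 for the other lists with more than 1 compared gene, against 0.18 over all compared genes.

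The compared genes most like the mean log2(RPKM + 1) of the 6 hosts, among 3443 searched over 21 T1 cells, were Pgls, an enzyme of the pentose phosphate pathway, at a Spearman correlation of 0.82, Dcps, the scavenger decapping enzyme, at 0.79, and Ech1, an enzyme of fatty acid breakdown, at 0.75. Uchl5, Slc12a2, Lyar, Aldoa, Mtif3, Tmem57 and Guk1 followed at 0.71 to 0.74. Most like Gas5 alone were Mrps33, of the mitochondrial ribosome, at 0.75, Atpif1 at 0.64, Anapc13 at 0.62, and Atp5l and Ndufa5 at 0.61. These are the highest of many values and carry no test. In adult HSCs, where 23 rows were searched, Yam1 was most like Gas5 at 0.61, followed by Pax6os1 at 0.37 and Mecomos at 0.33, and Lincpint was most like the mean of the hosts at 0.40.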

How the data were processed

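Single-cell RNA was measured in 22 T1 pre-HSCs and 26 adult HSCs, and 5 methylation libraries were not analysed here. Per the labels' protocols, single cells were moved by mouth pipette into lysis buffer with ERCC spike-in RNA. The authors deposited the T1 table as RPKM. The deposited adult table names no unit and was treated as FPKM, since the submitters' processing notes name Cufflinks 2.1.0 (build mm10); aligner and annotation: not given in the sources used here. Neither table holds counts, so the reads behind a value are unknown, and an exact 0 can be a failed estimate.

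Columns were assigned by the cell numbers in their names. Wildtype cell 19 and 2 adult columns sharing the name 16 were not used, leaving 21 and 25 cells. Differences are of mean log2(RPKM + 1), which understates changes of low genes, and a size of 1 is a rule, not a test. Detection means 1 RPKM or FPKM. Correlations are Spearman's over cells, without p-values. Shares carry exact Clopper-Pearson 95% intervals. Row offsets were checked over 500 rows at up to 5 rows either way. Calculations used Python 3.11.15, numpy 2.4.6, pandas 2.3.3 and SciPy 1.17.1 and were tested on simulated data. The members and lists were chosen with earlier results of these data known. All members are named, with the 3 highest genes of each list by mean RPKM, and the 10 and 5 genes most like the hosts' mean and Gas5, passing over predicted genes, clone names and pseudogenes; a gene that this rule names is not reported here. Zfas1 and Snora73b were added after their values were seen. Alternatives tried are given in the closing section.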

Additional observations from a re-analysis of the deposited data

Results flagged for a closer look

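In the 9 wildtype T1 pre-HSCs, 4 of the 6 host genes had 1 cell that stood apart, by a gap to the nearest other cell of more than 0.493 of the whole range on the log2(RPKM + 1) scale, a limit that chance passes in about 1 of 20 groups. Gas5 was lowest in cell 13, at 5.14, with a gap of 0.51 of the range. Snhg6 was lowest in cell 15, at 2.79, with a gap of 0.59. Snhg5 was highest in cell 17, at 8.99, with a gap of 0.65. Snhg1 was highest in cell 22, at 4.04, with a gap of 0.86. The 4 cells are different ones. Groups of 12 KO cells and of 25 adult cells are too large for this rule. Snhg1 was listed at 0 in 7 of the 9 wildtype cells and Snhg5 in 4. The chance rate does not hold for groups with so many values at 0, where a single detected cell makes a large gap by construction.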

How the results depend on the processing

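No count or median of the host genes had a test, so settings were compared by size alone. The count of genes with a difference of 1 or more in size was 1524, against 582 with a pseudocount of 10 and 2435 with no filter. It ran from 1456 to 2006 with single cells left out. The number of host genes at 1 or more in at least 50% of adult cells was 4, and 1 at a threshold of 5. In T1 cells it was 3, and 2 at a threshold of 5. The median difference of the hosts was -0.59, from -1.07 to 0.57 over 7 other settings, with the 0.57 from an equal median per cell, and from -0.87 to -0.27 with single cells left out, where it was -0.36 without wildtype cell 20 and -0.27 without wildtype cell 22. The median correlation with the ribosomal protein level ran from 0.10 to 0.31 over 11 settings and from 0.15 to 0.27 with single cells left out. The median pairwise correlation in T1 cells ran from -0.03 to 0.23 over 7 settings and from -0.03 to 0.10 with single cells left out, so its sign is not fixed. That in adult HSCs ran from 0.10 to 0.22 over 4 settings and from 0.17 to 0.27 with single cells left out. Snhg6 stayed lower in KO cells in all 28 settings, from -4.71 to -1.81, as did Snhg3, from -2.51 to -0.33, and Gas5 was higher in all of them, from 0.21 to 2.28. The cause of these changes was not tested. No paired analysis was possible because KO and wildtype cells share no replicate numbers and no test was made.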
